A study of Rattus norvegicus with 172 samples.

Results

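The genes described here encode the voltage-gated sodium channels, the voltage-gated calcium channels and the HCN channels of rat dentate granule cells. They were taken by symbol alone: every probe set with a single gene symbol that starts with Scn and a digit, with Cacn, or with Hcn and a digit. This gave 39 genes (12 Scn, 24 Cacn and 3 Hcn genes) on 55 of the 31099 probe sets, and the brightest probe set stood for its gene. Of the 39 genes, 26 lay above the median of the array in at least 6 rats and were tested among 10758 genes, while 13 did not and are given by their level only.

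RNA was measured on 172 one-colour Affymetrix arrays in 164 male Sprague-Dawley rats, from granule cells cut by laser out of hippocampal sections of 10 µm. Pilocarpine was used by 2 laboratories, A and B, on 48 rats. These received methylscopolamine and then 300 to 350 mg/kg of the cholinergic agonist pilocarpine, which started status epilepticus (SE, a prolonged state of seizure), and pentobarbital stopped it after 90 min. Kainate was used by another pair of laboratories, again named A and B, on 48 rats. This glutamate receptor agonist was given at 5 mg/kg each hour until SE began, with a first dose of 7.5 mg/kg in laboratory B. SE ended by itself after 6 to 8 h in laboratory A and was stopped with pentobarbital after 90 min in laboratory B. Controls of both models received saline, and pilocarpine controls had methylscopolamine too. A single laboratory studied SSSE (self-sustaining status epilepticus) in 20 rats. Kindling, where seizures grow in stage as mild stimuli are repeated, was studied in 48 rats by a further pair of laboratories named A and B. How SSSE and kindling were induced, and what their controls received, is not given in the sources used here. Rats of the SE models were taken 1, 3 or 10 days after SE, and kindled rats at stage 2, 4 or 5. Each of the 28 groups held 6 rats, except for 5 controls, 5 day 3 rats and 4 day 10 rats of SSSE.

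Levels are log2(signal + 16), and a change is the mean of the treated rats minus that of the controls in their own laboratory, with equal weight for both laboratories where a model had a pair, and with its standard error. A gene that "rose" or "fell" had an adjusted p under 0.05 in limma's test over all 10758 genes. The 3 times of a laboratory share its controls, so their changes are not independent. A level of 1 probe set cannot be set against that of another, because probes differ in how strongly they bind.

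Median signal per array ran from 28 to 54.2. The granule cell markers Prox1 and Calb1 lay above the array median in 41 of 41 control rats, but so did Gfap and Gja1 of astrocytes, Mbp of oligodendrocytes and Gad1 of interneurons. A lower level in such tissue can mean less RNA per cell or fewer cells of a type, and these cannot be told apart. Some rats went against their group in how far they resembled day 1 (the slope of a rat's changes on the mean day 1 changes of its model, over all genes tested). Pilocarpine laboratory B day 10 rats 1, 2 and 3 stood at 1.08, 1.13 and 1.09, and SSSE day 3 rat 4 at 1.1. Pilocarpine laboratory B day 1 rats 1 and 2 stood at only 0.49 and 0.347, and SSSE day 1 rat 6 at 0.351. Mean changes that rest on the first 4 are given with and without them, and changes of pilocarpine laboratory B alone with all 6 rats. SSSE day 1 rat 3 was named a control by another of its labels and stood at 1.02, against -0.105 to 0.0498 in the SSSE controls, and kindling laboratory A stage 2 rat 4 a kainate rat. SSSE rat 3 is itself part of the day 1 mean, and these controls are its baseline. That contrast is therefore partly built in and does not settle the label. SSSE rat 3 was kept at day 1, as its title has it, and the other rat in kindling, as its laboratory and stage have it.

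A sodium channel has a single large pore protein (the Scn genes that end in a) and smaller beta subunits (those that end in b), which set its gating, its place in the membrane and its contacts with other cells. Opening of sodium channels drives the upstroke of the action potential. A calcium channel is built on a Cacna1 pore, with a Cacnb subunit inside the cell and a Cacna2d subunit outside it. High-voltage pores trigger transmitter release and signal to the nucleus, and T-type pores open near rest and help neurons to fire in bursts. Several Cacng genes encode TARPs, which accompany AMPA-type glutamate receptors more than calcium channels. HCN channels pass an inward current when the membrane is hyperpolarised and steady the resting potential. Mutations in many of these genes cause epilepsy, and several anticonvulsant drugs bind to the channels they encode.

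Promoters from RefSeq (GRCr8 build, 250 bases before to 50 after the annotated start) were at hand for 19 of the 26 genes tested. They are printed for 4 genes: the neighbours Scn4b and Scn2b, which lie side by side among the protein-coding genes of chromosome 8 and both fell at day 1, and Scn3a and Scn7a of chromosome 3, the sodium channel pores that rose most often. Each runs 5′ to 3′ on the strand of its gene, and capitals mark the motif matches described after them. The Scn4b promoter is chr8:54343623-54343922 on the plus strand, Scn2b chr8:54322133-54322432 on the plus strand, Scn3a chr3:70666149-70666448 on the minus strand and Scn7a chr3:71846235-71846534 on the minus strand.
Scn4b: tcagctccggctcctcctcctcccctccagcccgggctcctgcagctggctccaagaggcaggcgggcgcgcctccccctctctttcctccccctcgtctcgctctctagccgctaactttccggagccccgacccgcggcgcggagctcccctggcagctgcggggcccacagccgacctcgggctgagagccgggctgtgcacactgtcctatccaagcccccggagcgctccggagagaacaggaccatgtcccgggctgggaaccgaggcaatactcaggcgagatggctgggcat
Scn2b: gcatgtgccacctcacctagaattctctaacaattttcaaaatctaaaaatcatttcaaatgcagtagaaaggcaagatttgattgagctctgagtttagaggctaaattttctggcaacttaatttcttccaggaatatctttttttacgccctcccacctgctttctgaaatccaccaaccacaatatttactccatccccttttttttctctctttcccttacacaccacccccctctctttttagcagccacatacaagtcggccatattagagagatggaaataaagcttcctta
Scn3a: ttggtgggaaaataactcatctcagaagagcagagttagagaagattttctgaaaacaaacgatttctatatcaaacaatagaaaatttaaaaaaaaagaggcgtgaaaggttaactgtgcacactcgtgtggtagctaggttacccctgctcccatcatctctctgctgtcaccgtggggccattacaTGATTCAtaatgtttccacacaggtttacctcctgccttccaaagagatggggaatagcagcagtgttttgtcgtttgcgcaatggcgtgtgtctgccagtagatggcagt
Scn7a: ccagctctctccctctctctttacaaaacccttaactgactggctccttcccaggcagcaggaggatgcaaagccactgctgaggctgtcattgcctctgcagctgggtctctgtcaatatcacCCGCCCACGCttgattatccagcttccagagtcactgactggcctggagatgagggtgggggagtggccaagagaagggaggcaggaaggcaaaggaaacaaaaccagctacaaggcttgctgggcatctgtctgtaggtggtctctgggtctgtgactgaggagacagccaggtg

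Motifs were searched on both strands: AP-1 (TGANTCA, bound by Fos and Jun proteins), CRE (TGACGTCA, bound by CREB), the EGR motif (GCGNGGGCG) and the GC box (GGGCGG, bound by Sp1). Of the 19 promoters, 1 held AP-1 (Scn3a), 0 CRE, 6 EGR and 11 the GC box. Among all 33469 promoters of this length the shares were 7.33%, 1.83%, 4.98% and 33.1%. In Scn7a the EGR and GC box matches overlap and share the same capitals, and none of the 4 motifs is in the windows of Scn4b and Scn2b. A match is a description of letters and no binding site was measured.

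The clearest movement was at day 1 after SE, where the 3 beta subunits of sodium channels fell after pilocarpine and kainate and some pore genes rose. After pilocarpine 9 of the 26 channel genes had changed at day 1 (34.6%, against 32.1% of all genes), 5 higher (15.8% of all genes were) and 4 lower (16.3%). After kainate 12 had changed (46.2%, against 41.6% of all genes), 5 higher (22.2%) and 7 lower (19.4%), and after SSSE 4 (15.4%, against 12.5% of all genes), 2 higher (5.51%) and 2 lower (7.02%). These shares lie close to those of all genes, so the channel genes as a group changed about as often as any other genes. Scn7a and Scn9a, higher after pilocarpine and kainate, reached the required 6 rats above the array median through treated rats alone. Cacna1g, higher after kainate and SSSE, did so mostly through treated rats. The counts of higher genes are therefore not independent of that filter. The median change was -0.02 after pilocarpine, -0.07 after kainate and 0.02 after SSSE, against 0, 0.02 and 0 for all genes.

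Later the counts were small, and the shares of all genes stand beside them. At day 3 after pilocarpine 2 channel genes were higher and 0 lower (7.69%, against 11.7% of all genes, of which 7.74% were higher and 3.92% lower). At day 10 after pilocarpine it was 1 higher and 1 lower (7.69%, against 8.93%, with 3.82% higher and 5.11% lower). Kainate left 2 lower at day 3 (7.69%, against 7.97%, with 4.67% higher and 3.3% lower). At day 10 after kainate 0 had changed (against 6.28%, with 2.57% higher and 3.71% lower), and 3 had an unadjusted p under 0.05 by limma. SSSE had 0 at day 3 (against 3.14%, with 1.66% higher and 1.48% lower), with 4 unadjusted by limma. At day 10 of SSSE there were 0 (against 0.344%, with 0.177% higher and 0.167% lower), with 2 unadjusted. Kindling had 0 at stage 2 and 0 at stage 4 (against 0% of all genes in both), with 1 channel gene unadjusted in each. At stage 5 it was 1 higher and 1 lower (7.69%, against 7.1%, with 3.23% higher and 3.87% lower). The higher genes at day 3 of pilocarpine include Scn7a, and the stage 5 rise was that of Cacna1g. Those counts are not independent of the filter either. Over the 12 comparisons 14 of the 26 genes changed at least once. These are 33 changes in all, 25 of them at day 1. The share of all genes that changed at least once was not worked out. These totals are therefore not read as a result about channel genes.

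**Figure D1:**
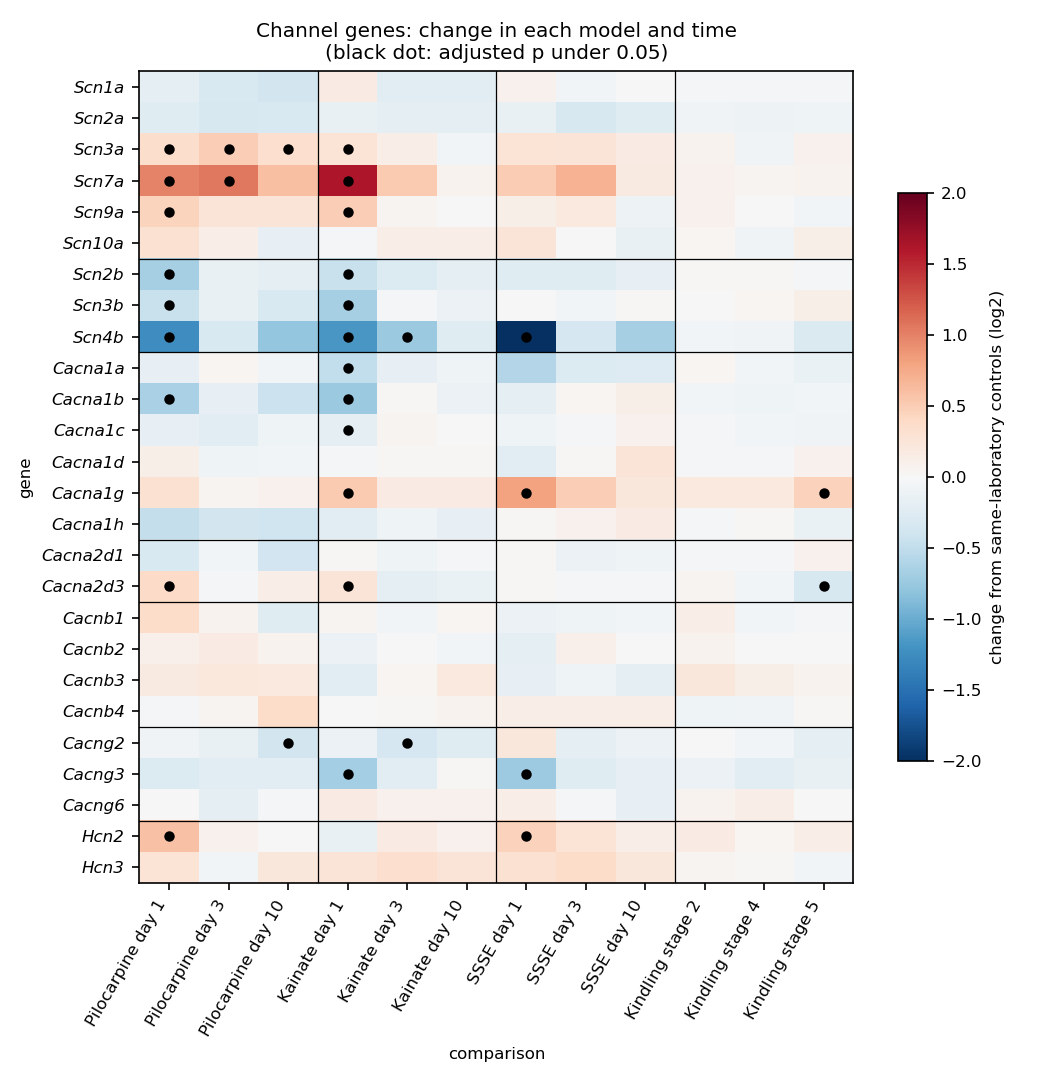
Colour shows the change of each of the 26 tested channel genes (log2, treated minus same-laboratory controls) in the 12 comparisons, with black dots at an adjusted p under 0.05; horizontal lines part sodium channel pores, sodium channel beta subunits, calcium channel pores, alpha2delta, beta and gamma subunits and HCN channels. The dots gather in the 3 day 1 columns, where Scn4b is darkest blue at -2 after SSSE and Scn7a darkest red at 1.62 after kainate, with 16 added to the signal.

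**Figure D2:**
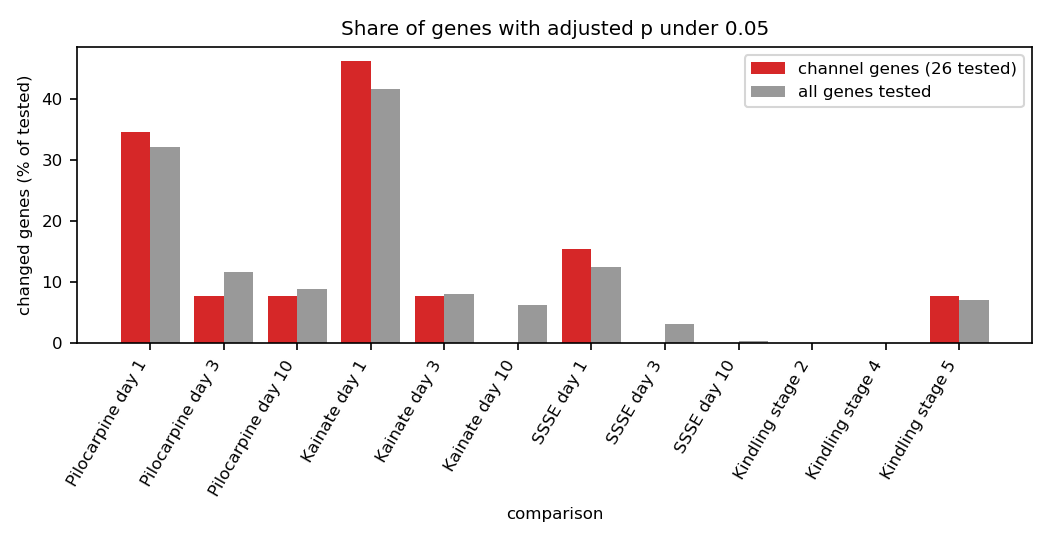
Bars give the percentage of tested genes with an adjusted p under 0.05 in each comparison, in red for the 26 channel genes and in grey for all 10758 genes. At day 1 the red bars stand at 34.6%, 46.2% and 15.4% and the grey bars at 32.1%, 41.6% and 12.5%.

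Scn4b, a beta subunit that favours the resurgent sodium current of fast-firing neurons, moved furthest. In pilocarpine laboratory A it ran from 6.32 to 7.11 in controls (median 7.01) and from 5.32 to 6.30 at day 1 (median 6.13), and in laboratory B from 7.28 to 7.88 (median 7.64) and from 4.79 to 7.91 (median 5.92). The groups of laboratory A did not overlap, and in laboratory B only day 1 rat 2, at 7.91, lay among or above the controls. Scn4b fell by 1.25 ± 0.28 on the log2 scale (n = 12 against 12, adjusted p = 0.000491), or 2.38-fold, and 11 of 12 rats lay below the controls of their laboratory.

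After kainate, Scn4b ran from 7.12 to 8.08 in the controls of laboratory A (median 7.30) and from 5.63 to 6.64 at day 1 (median 5.94). In laboratory B it ran from 6.97 to 7.99 (median 7.74) and from 6.29 to 7.27 (median 6.69). Again 11 of 12 day 1 rats lay below their controls, and the fall was 1.17 ± 0.17 (n = 12 against 12, adjusted p = 2.79e-07). At day 3 after kainate Scn4b was still lower by 0.74 ± 0.17 (adjusted p = 0.0027), with 9 of 12 rats below their controls. At day 10 it stood at -0.25 ± 0.17 (adjusted p = 0.447), and the rise from day 1 to day 10 was 0.92 ± 0.17 (adjusted p = 3.77e-05).

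In SSSE, Scn4b stood at 7.66, 7.59, 7.45, 8.19 and 7.77 in the 5 controls. The 6 day 1 rats had 5.25 to 7.47 with a median of 5.40, and rat 6, which resembled day 1 least, was the only one within the control range. The fall was 2.00 ± 0.56 (n = 6 against 5, adjusted p = 0.0261), or 4.00-fold, the largest of any channel gene in any comparison. It did not hold in every alternative: the adjusted p was 0.0529 without day 1 rat 5, 0.0585 without day 1 rat 2, 0.0558 without control rat 4, 0.0594 with 64 in place of 16 added to the signal, and 0.168 with day 1 rat 3 counted as a control. At day 3 Scn4b stood at 7.21, 5.97, 10.41, 6.84 and 6.51 in rats 2 to 6 (-0.34 ± 0.58, adjusted p = 0.799). Rat 4, at 10.41, had the highest Scn4b level of any rat in the study, and without it the value was -1.10 (adjusted p = 0.127). At day 10 the 4 rats had 7.60, 6.82, 6.95 and 6.92 (-0.66 ± 0.62, adjusted p = 0.815).

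Pilocarpine laboratory B kept a low Scn4b level to day 10 and laboratory A did not. In laboratory B all 6 day 10 rats (6.03, 5.11, 4.97, 6.54, 6.67 and 6.93) lay below the lowest control at 7.28, a change of -1.57 ± 0.40 in that laboratory (adjusted p = 0.00958, against 8.38% of all genes called there). Rats 1 to 3, which resembled day 1, were the 3 lowest. In laboratory A the change was 0 ± 0.40 (adjusted p = 0.998, against 0.753% of all genes). The difference between the laboratories was 1.57 ± 0.56 (adjusted p = 0.231), so it did not pass. Averaged over both, day 10 stood at -0.78 ± 0.28 (adjusted p = 0.0708), and at -0.45 without laboratory B rats 1 to 3 (adjusted p = 0.534). Kindling moved Scn4b little: -0.06 ± 0.17, -0.07 ± 0.17 and -0.29 ± 0.17 at stages 2, 4 and 5 (adjusted p = 0.996, 0.989 and 0.319).

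**Figure D3:**
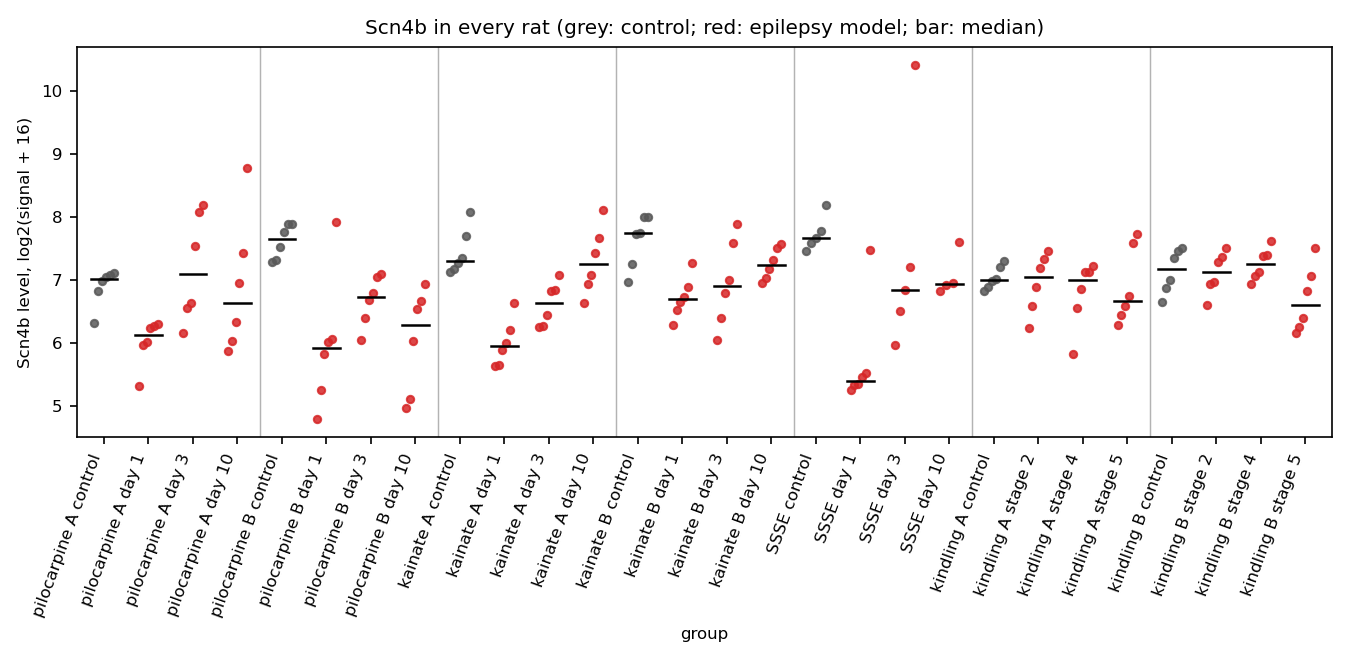
Each point is the Scn4b level of 1 rat, log2(signal + 16), in the 28 groups, grey for controls and red for epilepsy models, with a bar at the median; thin lines part the laboratories. Day 1 medians lie below the control medians in all 5 SE laboratories, though pilocarpine laboratory B day 1 rat 2 stands at 7.91 and SSSE day 1 rat 6 at 7.47. SSSE day 3 rat 4 lies alone at 10.41.

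Scn2b encodes a beta subunit that is bound to the pore by a disulphide bridge and raises the number of channels at the surface. Its levels in pilocarpine laboratory A were 10.84 to 11.60 in controls (median 11.14) and 10.30 to 11 at day 1 (median 10.41), and in laboratory B 10.32 to 11.31 (median 11.05) and 9.79 to 10.75 (median 10.29). Scn2b fell by 0.67 ± 0.15 (n = 12 against 12, adjusted p = 0.00035), with 9 of 12 rats below their controls. In kainate laboratory B it fell from 11.11 to 11.69 in controls (median 11.25) to 10.12 to 11.08 at day 1 (median 10.64), without overlap. Laboratory A moved less, from 10.72 to 11.03 (median 10.90) to 10.48 to 10.90 (median 10.66), and the mean fall was 0.45 ± 0.09 (adjusted p = 6.14e-05). In SSSE all 6 day 1 rats (10.41 to 10.69) lay below the 5 controls (10.70 to 10.90), but the change of -0.24 ± 0.10 did not pass (adjusted p = 0.115). A second, dimmer probe set of Scn2b gave -0.32 ± 0.20 after pilocarpine and -0.27 ± 0.15 after kainate (adjusted p = 0.221 and 0.159), so the fall rests on the brighter probe set.

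Scn3b, a beta subunit that is not covalently bound to the pore, fell at day 1 after both drugs. In kainate laboratory A it ran from 11.05 to 11.29 in controls (median 11.21) and from 10.44 to 10.89 at day 1 (median 10.82), and in laboratory B from 11.48 to 11.97 (median 11.71) and from 9.75 to 11.37 (median 11.11). All 12 kainate rats lay below the controls of their laboratory, and the fall was 0.66 ± 0.11 (n = 12 against 12, adjusted p = 6.06e-06). After pilocarpine it was 0.45 ± 0.16 (adjusted p = 0.0236), with 7 of 12 rats below their controls. The SSSE value was 0 ± 0.11 (adjusted p = 0.982), with 6 day 1 rats at 10.61 to 10.93 around a control range of 10.54 to 10.98. The F-test of Scn3b between the 3 SE models at day 1 missed the threshold (adjusted p = 0.0691). A second Scn3b probe set fell too, by 0.94 ± 0.24 after pilocarpine and 0.75 ± 0.15 after kainate (adjusted p = 0.00199 and 8.06e-05). At day 10 after pilocarpine the brighter probe set stood at -0.30 ± 0.16 (adjusted p = 0.233), and at -0.03 without laboratory B rats 1 to 3 (adjusted p = 0.946). The second one, with all rats, stood at -0.91 ± 0.24 at that time (adjusted p = 0.0112). The probe sets thus disagree on whether the fall of Scn3b had ended by day 10 of pilocarpine.

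Between day 1 and day 3 some beta subunit changes passed the test and others did not. Scn2b rose between day 1 and day 3 of pilocarpine by 0.52 ± 0.15 (adjusted p = 0.00718) and Scn4b by 0.94 ± 0.28 (adjusted p = 0.0125). Scn3b rose between the same days of kainate by 0.62 ± 0.11 (adjusted p = 3.43e-05). The values that did not pass were 0.30 ± 0.16 for Scn3b of pilocarpine (adjusted p = 0.165), and 0.19 ± 0.09 for Scn2b and 0.42 ± 0.17 for Scn4b of kainate (adjusted p = 0.111 and 0.0542). Granule cell markers were lower at day 1 too. All 6 of those tested fell at day 1 of pilocarpine and of kainate, with medians of -0.87 and -0.89, and 3 of 6 fell at day 1 of SSSE, with a median of -0.79. At day 3, 3 of 6 were still lower after pilocarpine (median -0.55), 1 after kainate (-0.37) and 0 after SSSE (-0.48). Of all genes, 16.3%, 19.4% and 7.02% were lower at day 1 of pilocarpine, kainate and SSSE, and 3.92%, 3.3% and 1.48% at day 3. In kainate laboratory A the summed level of these markers ran from 12.70 to 12.97 in controls and from 11.69 to 11.96 at day 1. The part of this in the beta subunit results was not tested.

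**Figure D4:**
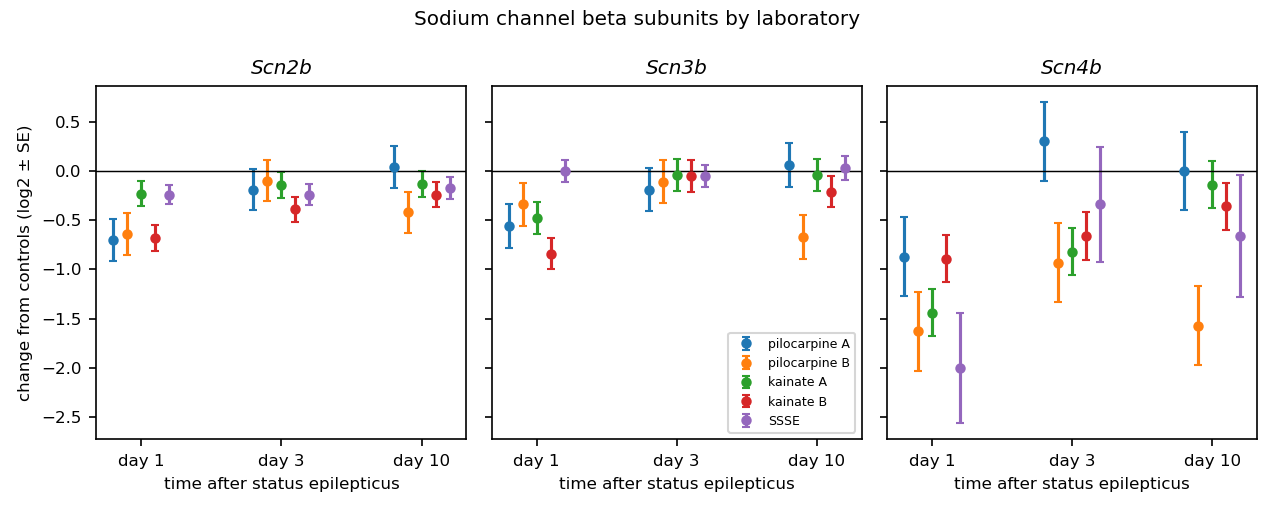
Points give the change of Scn2b, Scn3b and Scn4b from same-laboratory controls (log2, bars are the standard error) at day 1, 3 and 10, with a colour for each of the 5 SE laboratories. At day 1 all points of Scn2b and Scn4b lie below 0, from -0.23 to -0.70 and from -0.87 to -2, and Scn3b of SSSE lies at 0.

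Among the 6 sodium channel pores tested, 3 rose at day 1 of pilocarpine and of kainate and 0 fell, where 15.8% and 22.2% of all genes were higher and 16.3% and 19.4% lower. Of these 3, Scn7a and Scn9a passed the filter on dim genes through treated rats alone, so the count is not independent of that filter. Scn3a, the pore typical of embryonic and newborn neurons, was the one that rose most often. In pilocarpine laboratory B it ran from 9.15 to 9.86 in controls (median 9.55), from 9.92 to 10.38 at day 1 (median 10.03), from 10.13 to 10.54 at day 3 (median 10.29) and from 9.83 to 10.55 at day 10 (median 10.27). At days 1 and 3 these rats did not overlap the controls. In laboratory A the ranges were 9.09 to 9.46, 9.19 to 9.73, 9.14 to 9.96 and 8.70 to 9.54, which overlap. The mean rise of Scn3a was 0.35 ± 0.10 at day 1, 0.49 ± 0.10 at day 3 and 0.33 ± 0.10 at day 10 (n = 12 against 12, adjusted p = 0.00571, 0.000546 and 0.0298).

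By laboratory, Scn3a changed by 0.54, 0.78 and 0.69 at days 1, 3 and 10 in pilocarpine laboratory B (each ± 0.14, adjusted p = 0.00656, 0.000316 and 0.00146, against 15.1%, 3.63% and 8.38% of all genes called there). In laboratory A the changes were 0.16, 0.19 and -0.04 (adjusted p = 0.459, 0.53 and 0.945, against 22.6%, 4.72% and 0.753% of all genes). The F-test of this difference did not pass (adjusted p = 0.142). Without laboratory B day 10 rats 1, 2 and 3 the day 10 mean was 0.23 (adjusted p = 0.314), although rats 5 and 6 of that group (10.24 and 10.01) also lay above the controls and rat 4 (9.83) at their upper end. After kainate Scn3a rose by 0.27 ± 0.09 at day 1 (adjusted p = 0.0195), with 3 of 12 rats above their controls. SSSE stood at 0.28 ± 0.17 (adjusted p = 0.281), and kindling within 0.09 of control at each stage. Its neighbour on chromosome 3, Scn2a, the main pore of axons of young principal neurons, ran the other way without passing: from -0.32 to -0.07 over the 12 comparisons, with a lowest adjusted p of 0.0565.

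Scn7a, a sodium-sensing relative of the voltage-gated pores that is known from glia and some neurons, was dim. It lay above the array median in 0 of 41 controls and in 17 of 30 day 1 rats, so it passed the filter through treated rats alone and its rise is not independent of that filter. Without the filter it remained higher at day 1 of both drugs. In kainate laboratory A its level ran from 4.43 to 5.24 in controls (median 4.67) and from 5.41 to 6.96 at day 1 (median 5.99). In laboratory B it ran from 4.61 to 5.62 (median 4.85) and from 5.49 to 8.56 (median 6.60). The rise was 1.62 ± 0.22 (n = 12 against 12, adjusted p = 6.02e-08), with 11 of 12 rats above their controls, and it was 1.10 ± 0.22 smaller at day 3 (adjusted p = 0.000123). Its size depends on the amount added to the signal: the rise was 2.42 with 1 added and 0.89 with 64 added, and passed in both cases.

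After pilocarpine Scn7a rose by 0.99 ± 0.36 at day 1 (adjusted p = 0.0304, but 0.0836 with 64 in place of 16 added to the signal) and by 1.05 ± 0.36 at day 3 (adjusted p = 0.0493, over 0.05 in 5 alternatives). At day 3 the laboratory A rats had 5.29, 9.70, 5.25, 7.56, 5.24 and 6.05, against a highest control of 5.74, so rats 2 and 4 carried much of that mean. In SSSE, Scn7a stood at 4.42, 4.52, 4.04, 4.34 and 4.51 in controls and at 6.30, 4.60, 4.58, 4.53, 4.83 and 4.37 at day 1 (0.50 ± 0.42, adjusted p = 0.44). Of these 6 rats 5 lay above the highest control, rat 1 far and the other 4 narrowly. At day 3 of SSSE rat 4 had 7.27 and the other 4 rats 4.25 to 4.95, and the change of 0.69 was 0.14 without rat 4.

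Some microglia markers also rose in the SE models. Of 8 tested, 3 were higher and 1 lower at day 1 of pilocarpine, 6 higher at day 3 of pilocarpine, 4 higher and 1 lower at day 1 of kainate and 7 higher at day 3 of kainate. SSSE had 0 higher and 1 lower at day 1, and 2 higher at day 3. Of all genes, 15.8% and 7.74% were higher at days 1 and 3 of pilocarpine. The same shares were 22.2% and 4.67% for kainate, and 5.51% and 1.66% for SSSE. The shares of all genes that were lower were 16.3% and 3.92% for pilocarpine, 19.4% and 3.3% for kainate, and 7.02% and 1.48% for SSSE. The summed level of the microglia markers in kainate laboratory B ran from 7.93 to 8.56 in controls, 7.44 to 8.78 at day 1 and 8.99 to 9.78 at day 3. In that laboratory Scn7a was highest at day 1 (median 6.60) and lower at day 3 (median 5.67), when the microglia sum was highest. In pilocarpine laboratory A both were highest at day 3: the microglia sum had a median of 8.48 in controls, 8.41 at day 1 and 10.1 at day 3, and the Scn7a values against control were 0.58 ± 0.51 at day 1 and 1.47 ± 0.51 at day 3 (adjusted p = 0.453 and 0.0865). Of the 8 microglia markers, Cd68 and Tyrobp lay above the array median in 0 of 41 controls, C1qb in 1 and Aif1 in 4. These markers needed treated rats to reach the 6 rats of the filter. The counts of higher microglia markers are therefore not independent of that filter. Astrocyte markers went mostly down at day 1, with 1 of 7 higher and 5 lower after pilocarpine and the same counts after kainate. At day 3 they went the other way, with 3 of 7 higher and 0 lower after pilocarpine (median change 0.70) and 2 higher and 0 lower after kainate (median change 0.29). In pilocarpine laboratory A their summed level had a median of 12.45 in controls and 13.58 at day 3. The part of either cell type in the Scn7a result was not tested.

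Scn9a, the pore known best from pain-sensing neurons and a neighbour of Scn7a on chromosome 3, was dim as well (above the array median in 0 of 41 controls and 14 of 30 day 1 rats). It too passed the filter through treated rats alone, with 21 rats in all, so its rise is not independent of that filter. It rose at day 1 by 0.45 ± 0.14 after pilocarpine and by 0.49 ± 0.12 after kainate (n = 12 against 12, adjusted p = 0.0102 and 0.000906). In kainate laboratory B it ran from 4.76 to 5.56 in controls (median 5.24) and from 5.12 to 6.20 at day 1 (median 5.94), which overlap, and 7 of 12 kainate rats lay above their controls. Scn1a, the pore whose loss causes Dravet syndrome, stood between -0.37 and 0.16 over the 12 comparisons (lowest adjusted p 0.198), and Scn10a between -0.17 and 0.30 (0.151).

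**Figure D5:**
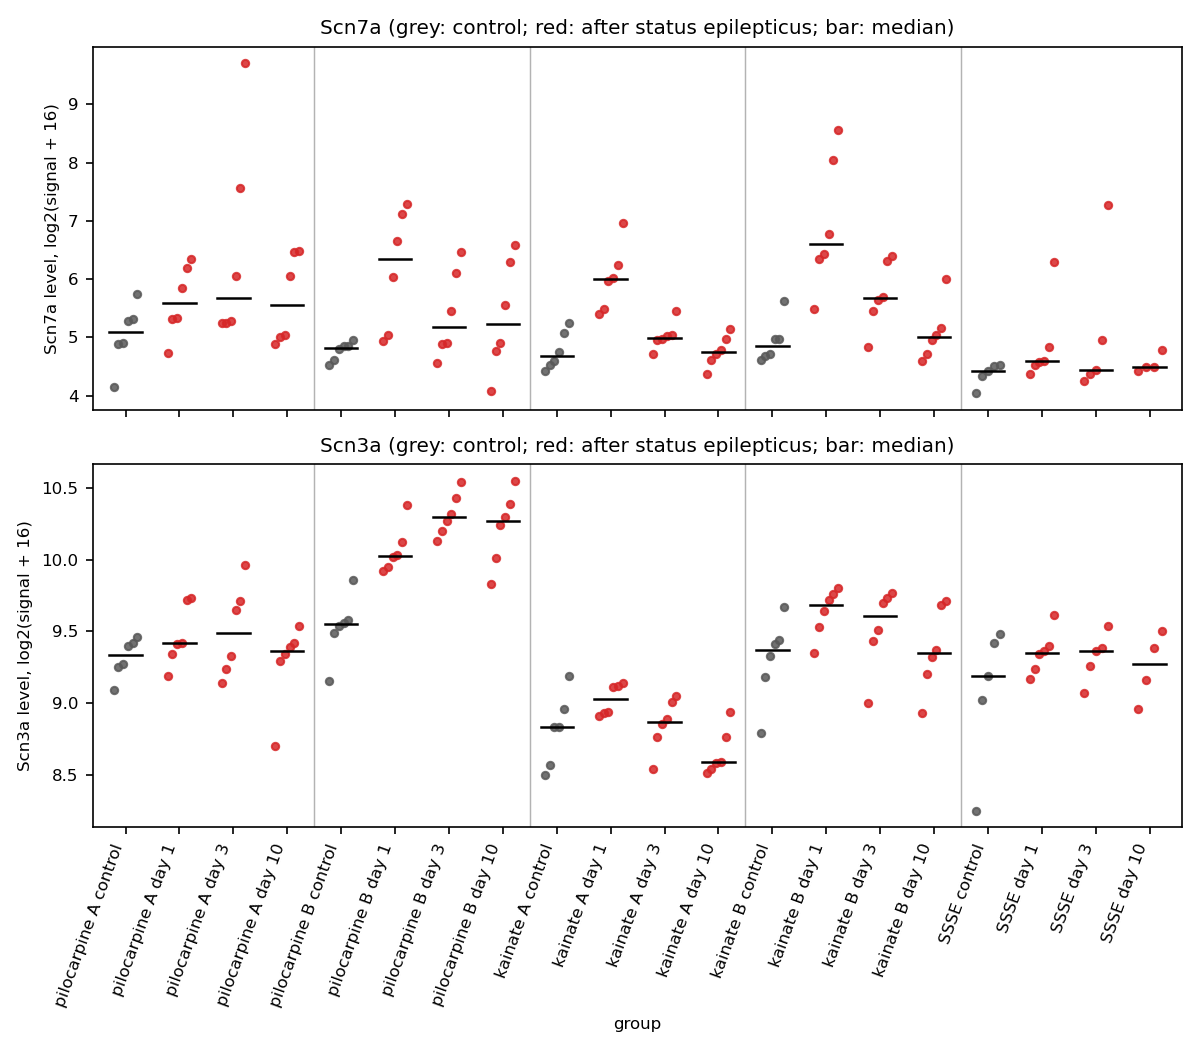
Each point is the level of 1 rat, log2(signal + 16), for Scn7a (upper panel) and Scn3a (lower panel) in the 20 groups of the SE laboratories, grey for controls and red after SE, with a bar at the median. Scn7a is highest at day 1 of kainate (medians 5.99 and 6.60), and Scn3a stays high at all 3 times in pilocarpine laboratory B (medians 10.03, 10.29 and 10.27 against 9.55).

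Of the 4 high-voltage calcium channel pores tested, 1 fell at day 1 of pilocarpine (16.3% of all genes did), 3 at day 1 of kainate (19.4%) and 0 at day 1 of SSSE (7.02%). Cacna1b, the N-type pore of presynaptic terminals, ran from 7.90 to 8.42 in kainate laboratory A controls (median 8.17) and from 7.13 to 7.62 at day 1 (median 7.33). In laboratory B it ran from 6.75 to 7.28 (median 7.13) and from 6.16 to 6.87 (median 6.38). The fall was 0.74 ± 0.09 (n = 12 against 12, adjusted p = 4.06e-09), with 11 of 12 rats below their controls, and it was gone by day 3 (0.02 ± 0.09, adjusted p = 0.947). The return from day 1 to day 3 was 0.76 ± 0.09 (adjusted p = 7.56e-09).

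After pilocarpine Cacna1b fell by 0.65 ± 0.16 at day 1 (adjusted p = 0.00173), from 6.86 to 7.69 in laboratory A controls (median 7.38) to 6.33 to 7.12 (median 6.65), and from 7.48 to 7.86 in laboratory B controls (median 7.67) to 5.92 to 7.53 (median 7.09). In SSSE it stood at -0.19 ± 0.19 (adjusted p = 0.533). Cacna1a, the P/Q-type pore that triggers release at most central synapses, fell by 0.50 ± 0.12 at day 1 of kainate (adjusted p = 0.000521), and its second probe set by 0.33 ± 0.13 (adjusted p = 0.0353). Its values at day 1 of pilocarpine and of SSSE were -0.17 ± 0.12 and -0.59 ± 0.21 (adjusted p = 0.291 and 0.0655). The second Cacna1a probe set stood at 0.09 ± 0.16 and -0.05 ± 0.11 there (adjusted p = 0.723 and 0.79). Cacna1c, the main L-type pore of neurons, fell by 0.20 ± 0.07 at day 1 of kainate (adjusted p = 0.0145), with 7 of 12 rats below their controls. Cacna1d, the other L-type pore, did not pass against controls (lowest adjusted p 0.158), from -0.23 at SSSE day 1 to 0.26 at SSSE day 10, though its change differed between the days of SSSE (F-test adjusted p = 0.0489, against 3.19% of all genes).

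T-type pores were represented by Cacna1g and Cacna1h. Cacna1g was dim, above the array median in 1 of 41 controls and 7 of 30 day 1 rats. With 11 such rats in all it passed the filter mostly through treated rats, so its rises are not independent of that filter. In SSSE it stood at 4.33, 4.73, 4.66, 4.59 and 5.07 in controls and at 5.77, 5.81, 5.57, 5.27, 5.76 and 4.75 at day 1, with rat 6 again within the control range. It rose by 0.81 ± 0.20 (n = 6 against 5, adjusted p = 0.0127; 0.132 with day 1 rat 3 counted as a control). In kainate laboratory A it ran from 4.19 to 4.92 in controls (median 4.27) and from 5.24 to 5.81 at day 1 (median 5.44), without overlap. In laboratory B it ran from 4.42 to 5.38 (median 4.99) and from 4.67 to 5.39 (median 4.89). The mean rise of 0.52 ± 0.14 (adjusted p = 0.00153) thus came from laboratory A, at 1.07 ± 0.19 (adjusted p = 3.14e-05, against 21.6% of all genes called there), with -0.02 ± 0.19 in B (adjusted p = 0.944, against 32.6%). The mean rise was 1.21 with 1 added to the signal and 0.20 with 64 added, and passed in both cases. The difference of 1.09 ± 0.27 had an adjusted p of 0.187, and no channel gene passed the F-test between the kainate laboratories (lowest adjusted p 0.419, for Cacna1g; 0.0093% of all genes passed).

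Cacna1g was also the channel gene that rose at kindling stage 5, by 0.46 ± 0.12 (n = 12 against 12, adjusted p = 0.0192). In kindling laboratory A it ran from 4.25 to 5.07 in controls (median 4.66) and from 4.88 to 5.25 at stage 5 (median 5.04), and in laboratory B from 4.27 to 5.17 (median 4.33) and from 4.13 to 5.35 (median 5.18). The groups overlap, with 5 of 12 rats above their controls. Stages 2 and 4 stood at 0.19 ± 0.12 and 0.20 ± 0.12 (adjusted p = 0.993 and 0.986). Cacna1h, the T-type pore linked to acquired epilepsy in the hippocampus, ran from -0.48 ± 0.22 at day 1 of pilocarpine (adjusted p = 0.0926) to 0.17 and passed in no comparison. A second, dimmer probe set of Cacna1h stood at 0.22 ± 0.17 at day 1 of pilocarpine (adjusted p = 0.365).

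Accessory subunits of calcium channels moved in both directions. Cacna2d3, an alpha2delta subunit, rose by 0.39 ± 0.14 at day 1 of pilocarpine and 0.26 ± 0.10 at day 1 of kainate (adjusted p = 0.0227 and 0.035). In pilocarpine laboratory A it ran from 9.94 to 10.41 in controls (median 10.03) and from 10.35 to 10.84 at day 1 (median 10.61). In laboratory B it ran from 10.02 to 10.41 (median 10.17) and from 9.87 to 11.27 (median 10.43). At kindling stage 5 Cacna2d3 fell by 0.32 ± 0.09 (adjusted p = 0.0278), the only gene of the 26 that rose in one comparison and fell in another. In kindling laboratory A it ran from 9.25 to 9.65 in controls (median 9.58) and from 8.85 to 9.71 at stage 5 (median 8.98), with rat 1 alone above the controls, and in laboratory B from 9.22 to 9.96 (median 9.45) and from 8.89 to 9.59 (median 9.34). Both stage 5 calls were lost when all 28 groups were fitted together (adjusted p = 0.2 for Cacna1g and 0.163 for Cacna2d3). Cacna2d1, the subunit that binds gabapentin, stood between -0.38 and 0.08 (lowest adjusted p 0.171).

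None of the 4 Cacnb genes passed on its brightest probe set, but the probe sets disagreed. Cacnb1 stood at 0.36 ± 0.17 on the brightest one at day 1 of pilocarpine (adjusted p = 0.0945), and its second one fell by 0.56 ± 0.14 (adjusted p = 0.00201). At day 1 of kainate these were 0.06 ± 0.15 and -0.52 ± 0.11 (adjusted p = 0.778 and 0.000109). Cacnb2 stood at 0.10 ± 0.09 on its brightest probe set at day 1 of pilocarpine and its second one fell by 0.78 ± 0.11 (adjusted p = 0.429 and 7.29e-07). At day 1 of kainate the second Cacnb2 probe set fell by 0.41 ± 0.09 (adjusted p = 0.000362), against -0.11 ± 0.08 (0.27). No direction is therefore given for either gene. Cacnb3 stood between -0.22 and 0.22 (lowest adjusted p 0.127), and Cacnb4, above the array median in 1 of 41 controls, between -0.08 and 0.36 (0.165).

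Of the Cacng family, 3 of 8 genes were bright enough to test. Cacng3, a TARP, stood at 6.95, 6.94, 7.02, 6.74 and 7.17 in SSSE controls and at 5.70, 5.89, 6.15, 6.92, 6.01 and 6.77 at day 1. Rats 4 and 6 lay within the control range and the other 4 below it. It fell by 0.73 ± 0.17 (n = 6 against 5, adjusted p = 0.0114; 0.131 with day 1 rat 3 counted as a control). At day 1 of kainate Cacng3 fell by 0.68 ± 0.13 (n = 12 against 12, adjusted p = 4.71e-05), from 6.01 to 6.98 in laboratory A controls (median 6.40) to 5.10 to 5.88 (median 5.44), and from 5.20 to 5.87 in laboratory B (median 5.61) to 4.42 to 5.94 (median 5.09). In pilocarpine rats, where the controls were dimmer at 4.72 to 6.21, the value was -0.28 ± 0.17 (adjusted p = 0.203).

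Cacng2, or stargazin, the TARP whose loss causes absence seizures in mice, fell later: by 0.34 ± 0.10 at day 3 of kainate (adjusted p = 0.0218) and by 0.37 ± 0.12 at day 10 of pilocarpine (adjusted p = 0.0359). At day 3 of kainate 9 of 12 rats lay below their controls, with laboratory A at 6.26 to 6.66 against 6.54 to 7.14 and laboratory B at 5.69 to 6.47 against 6.32 to 6.64. The second probe set of Cacng2 gave -0.19 ± 0.09 and -0.02 ± 0.10 in these comparisons (adjusted p = 0.24 and 0.935). At day 10 of pilocarpine the value was -0.63 ± 0.16 in laboratory B and -0.10 ± 0.16 in laboratory A, and without laboratory B rats 1 to 3 the mean was -0.37 (adjusted p = 0.0921). Cacng6, a relative of the gamma subunit of muscle calcium channels, stood between -0.18 and 0.17 (lowest adjusted p 0.358) and lay above the array median in 3 of 41 controls.

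Among HCN channels Hcn2 and Hcn3 were tested. Hcn2, which responds strongly to cyclic AMP, ran from 6.41 to 7.51 in pilocarpine laboratory A controls (median 6.77) and from 6.58 to 8.05 at day 1 (median 7.44), and in laboratory B from 5.95 to 7.05 (median 6.54) and from 6.16 to 8.07 (median 7.24). It rose by 0.59 ± 0.20 (n = 12 against 12, adjusted p = 0.0233), with 7 of 12 rats above their controls. In SSSE it stood at 6.60, 6.23, 5.81, 6.45 and 6.44 in controls and at 6.63, 6.74, 6.86, 6.85, 6.82 and 6.66 at day 1. All 6 day 1 rats lay just above the highest control, and the rise was 0.46 ± 0.14 (n = 6 against 5, adjusted p = 0.0356). This call was lost without any of day 1 rats 2, 3, 4 and 5 and control rats 2 and 3 (adjusted p = 0.052 to 0.0985), with day 1 rat 3 counted as a control (0.216), and with all 28 groups fitted together (0.274).

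After kainate Hcn2 stood at -0.15 ± 0.17 at day 1 (adjusted p = 0.504). The difference of pilocarpine minus kainate was 0.74 ± 0.24 (adjusted p = 0.0522), and the F-test over the 3 SE models gave an adjusted p of 0.0742, so a difference between models was not shown. At day 10 of pilocarpine Hcn2 stood at -0.01 against controls, and at 0.15 without laboratory B rats 1 to 3 (adjusted p = 0.835). Hcn3, above the array median in 2 of 41 controls, stood between -0.06 and 0.37 and passed in no comparison (lowest adjusted p 0.0678, at 0.31 ± 0.11 at day 1 of SSSE).

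The 13 dim genes were Scn4a, Scn8a, Scn11a, Cacna1e, Cacna1f, Cacna1i, Cacna1s, Cacng1, Cacng4, Cacng5, Cacng7, Cacng8 and Hcn4. Just outside the filter lay Scn11a, above the array median in 5 rats, and Cacng8, in 3, and just inside it Cacnb4 and Cacng6 with 8 rats each and Cacna1g with 11. Scn8a, the main pore of the adult axon initial segment, had a median level of 5.00 over 164 rats (4.04 to 5.5) on its brightest probe set and was above the array median in 1 rat. A dim probe set gives no measure of how much of that RNA the cells hold.

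Whether the changes differed between days, laboratories and models was tested too. After kainate the F-test between days was passed by 13 of 26 genes (against 35.2% of all genes) and after pilocarpine by 5 (against 24.5%), namely Scn2b, Scn4b, Hcn2, Cacna2d3 and Cacnb1, and by 8 without laboratory B day 10 rats 1 to 3. For Cacnb1 this holds for the brightest probe set, while the second stood at -0.56, -0.56 and -0.43 at days 1, 3 and 10 of pilocarpine. After SSSE the F-test between days was passed by 1 of 26, Cacna1d (against 3.19%). Between the stages of kindling 0 passed (against 0.995%, with 1 unadjusted by limma). Between laboratories 0 passed in pilocarpine (against 0.27%, with 3 at an unadjusted p under 0.05 by limma), in kainate (2 unadjusted) and in kindling (against 0% of all genes, with 0 unadjusted). Between the SE models 0 passed at day 1 (against 5.72%, 6 unadjusted), at day 3 (against 0.446%, 3 unadjusted) and at day 10 (against 0.0651%, 2 unadjusted), so no channel gene was shown to be particular to a model.

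Genes of proteins that bind these channels were counted in the same way, and the shares of all genes that had changed at day 1 were 32.1% after pilocarpine, 41.6% after kainate and 12.5% after SSSE. Of 15 sodium channel partners tested, 3 rose and 3 fell at day 1 of pilocarpine, 6 rose and 4 fell at day 1 of kainate, and 1 rose and 1 fell at day 1 of SSSE. Fgf13 and Fgf12, intracellular factors that bind the tail of the sodium channel, fell by 0.74 ± 0.15 and 0.91 ± 0.18 after pilocarpine (adjusted p = 0.00018 and 0.000134) and by 0.63 ± 0.10 and 0.83 ± 0.13 after kainate (adjusted p = 2.29e-06 and 7.48e-07). The adhesion protein Nrcam of the axon initial segment fell by 0.68 ± 0.14 and 0.80 ± 0.08. Nfasc, another adhesion protein of that site, rose by 0.71 ± 0.16 and 0.61 ± 0.09.

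Of 8 calcium channel partners tested, 2 rose and 1 fell at day 1 of pilocarpine, 2 rose and 2 fell at day 1 of kainate, and 1 rose at day 1 of SSSE. Rem2 and Gem, small GTP-binding proteins that inhibit high-voltage calcium channels, were the ones that rose. Rem2 rose by 2.05 ± 0.22 after pilocarpine (adjusted p = 2.06e-09), 1.73 ± 0.28 after kainate (adjusted p = 1.42e-06) and 2.00 ± 0.45 after SSSE (adjusted p = 0.00893), a larger change than that of any calcium channel gene tested. It was still higher at day 3 of both drugs (1.27 ± 0.22 and 0.89 ± 0.28), at day 10 of kainate (0.88 ± 0.28, adjusted p = 0.0441) and at kindling stage 5 (0.59 ± 0.16, adjusted p = 0.02). Gem rose by 0.90 ± 0.18 after pilocarpine and 0.41 ± 0.13 after kainate at day 1.

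Of 6 HCN partners tested, 2 rose and 1 fell at day 1 of both drugs and 1 rose and 1 fell at day 1 of SSSE. Flna rose by 0.62 ± 0.17 after pilocarpine and 0.96 ± 0.18 after kainate (adjusted p = 0.00451 and 2.43e-05). Nedd4l rose in all 3 SE models, by 0.60 ± 0.12, 0.37 ± 0.10 and 0.41 ± 0.10 (adjusted p = 0.000157, 0.00322 and 0.0156). The one that fell was Pex5l, or TRIP8b, which carries HCN channels to dendrites, by 0.56 ± 0.22, 0.62 ± 0.18 and 0.98 ± 0.32 in pilocarpine, kainate and SSSE (adjusted p = 0.0398, 0.00385 and 0.0472). Of 4 sodium leak channel genes tested, 1 rose and 0 fell at day 1 of pilocarpine and of SSSE. At day 1 of kainate 1 rose and 2 fell. Nalf1, a subunit of that channel, was the one that rose in all 3 SE models, by 0.38 ± 0.10, 0.59 ± 0.08 and 0.52 ± 0.12 (adjusted p = 0.00357, 4.95e-08 and 0.00836). Unc79 and Unc80 fell at day 1 of kainate, by 0.47 ± 0.11 and 0.37 ± 0.11 (adjusted p = 0.000277 and 0.0041). Of 5 regulators of channel genes tested, the metal-responsive factor Mtf1 fell at day 1 of kainate and of SSSE, by 0.43 ± 0.13 and 0.31 ± 0.09 (adjusted p = 0.00602 and 0.0293), and none rose in any of the 12 comparisons.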

How the data were processed

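Gene expression was measured on 172 arrays of 164 rats. The authors deposited 1 linear signal intensity per probe set and array, made with MAS5 (version not given) per the submitters' processing notes. The 8 rats with repeated arrays were averaged on the log2 scale. Probe sets with 1 gene symbol in the platform annotation, no array controls, and a level above the array median in at least 6 rats were kept, and the brightest stood for its gene. From log2(intensity + 16), limma 3.58.1 in R 4.3.3 fitted 1 mean per group in each model, and Benjamini-Hochberg adjustment ran over 10758 genes (threshold 0.05). F-tests compared days, stages, laboratories and SE models. The fit was tested on simulated data. The number of rats limits the precision, and rats share laboratories, so p-values measure the spread between these rats.

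The members and gene lists were chosen with earlier results of these data known. In each comparison up to 8 rises and 8 falls were named, any channel gene could be named whatever its value, and a few partner genes per list were named, chosen partly by size. Alternatives were the added constant (1 or 64), no filter, quantile normalization, the mean of a gene's probe sets, the first array of a rat, rat number as a block, 1 fit of 28 groups, and leaving out rats, among them doubted ones (correlation with their group more than 0.02 under the group's median). Promoters came from RefSeq (GRCr8). Rats of the same number were not treated as pairs.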

Additional observations from a re-analysis of the deposited data

Results flagged for a closer look

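In groups of 4 to 6 rats, single rats far from the rest of their group were looked for in the 14 channel genes that changed anywhere. Of 392 gene and group pairs, 25 held such a rat, and chance gives about 5%. For Cacna1a it was SSSE day 1 rat 6 at 6.52 (nearest rat 5.63), kindling laboratory B control rat 3 at 6.64 (nearest rat 5.96) and kindling laboratory B stage 4 rat 2 at 6.53 (nearest rat 6.04). For Cacna1c it was SSSE day 1 rat 6 at 8.60 (nearest rat 8.31), kindling laboratory A control rat 2 at 8.46 (nearest rat 8.32) and kindling laboratory B stage 4 rat 6 at 8.10 (nearest rat 8.30). For Cacna1g it was kindling laboratory A stage 2 rat 5 at 4.19 (nearest rat 4.84) and kindling laboratory B stage 5 rat 3 at 4.13 (nearest rat 4.94). For Cacna2d3 it was SSSE control rat 1 at 9.27 (nearest rat 9.51) and kindling laboratory A stage 5 rat 1 at 9.71 (nearest rat 9.10). For Cacng2 it was kindling laboratory A stage 4 rat 1 at 5.82 (nearest rat 6.59). For Cacng3 it was kindling laboratory A control rat 2 at 7.13 (nearest rat 6.57). For Scn2b it was SSSE day 3 rat 4 at 10.07 (nearest rat 10.63) and kainate laboratory A day 10 rat 3 at 10.21 (nearest rat 10.78). For Scn3a it was pilocarpine laboratory A day 10 rat 5 at 8.70 (nearest rat 9.29). For Scn4b it was SSSE day 1 rat 6 at 7.47 (nearest rat 5.53), SSSE day 10 rat 1 at 7.60 (nearest rat 6.95), SSSE day 3 rat 4 at 10.41 (nearest rat 7.21), pilocarpine laboratory A control rat 2 at 6.32 (nearest rat 6.83) and pilocarpine laboratory A day 1 rat 5 at 5.32 (nearest rat 5.96). For Scn7a it was SSSE day 1 rat 1 at 6.30 (nearest rat 4.83), SSSE day 3 rat 4 at 7.27 (nearest rat 4.95) and kainate laboratory B control rat 1 at 5.62 (nearest rat 4.98). For Scn9a it was kindling laboratory A stage 4 rat 6 at 4.88 (nearest rat 5.12) and pilocarpine laboratory B control rat 5 at 4.63 (nearest rat 5.10). SSSE day 1 rat 6 and SSSE day 3 rat 4, which also went against their groups in likeness to day 1, recur among them.

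The change from control differed between days 1, 3 and 10 by limma's F-test in 19 cases. After pilocarpine the adjusted p was 0.0499 for Cacna2d3, 0.0199 for Cacnb1, 0.0476 for Hcn2, 0.00943 for Scn2b and 0.0327 for Scn4b. The Cacnb1 result is that of its brightest probe set, with which the second one disagreed. After kainate the adjusted p was 0.00787 for Cacna1a, 5.36e-09 for Cacna1b, 0.00467 for Cacna1c, 0.042 for Cacna1g, 0.000468 for Cacna2d3, 0.0142 for Cacnb3, 0.000127 for Cacng3, 0.0417 for Scn2b, 0.0218 for Scn3a, 3.09e-05 for Scn3b, 0.000138 for Scn4b, 7.56e-07 for Scn7a and 0.00159 for Scn9a. After SSSE the adjusted p was 0.0489 for Cacna1d. The days share their controls.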

How the results depend on the processing

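The 33 called changes gave 400 gene results under the alternatives, of which 372 kept their side of the threshold, 28 lost it and 0 reversed. Of 305 counts of channel genes called 251 stayed within 1.5 times and 54 moved. At day 3 of pilocarpine the 2 calls became 1 with 1 added to the signal, with no filter and with the mean of probe sets, and 4 with 1 fit of all 28 groups. At day 10 of pilocarpine the 2 calls became 1 with quantile normalization and without doubted rats, 0 without laboratory B rats 1 to 3, and 8 with the fit of 28 groups. At day 1 of SSSE the 4 calls became 0 with rat 3 as a control, and 2 to 6 when single rats were left out, with 2 without day 1 rat 5 or rat 2. At day 3 of SSSE the 0 calls became 1 with quantile normalization, and 0 to 1 without single rats, with 1 without day 3 rat 2 or control rat 5. At kindling stage 5 the 2 calls became 0 in the fit of 28 groups, which called 3 genes between the pilocarpine laboratories in place of 0.

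Between the days of pilocarpine the 5 genes became 3 with 1 added to the signal or the first array alone, 8 without laboratory B rats 1 to 3, and 9 in the fit of 28 groups. Between the days of SSSE the 1 gene became 0 with 1 added, with no filter, with quantile normalization, with the block or with rat 3 as a control, and 3 without doubted rats or without day 3 rat 4. Without single rats it was 0 to 5, with 2 without day 1 rat 4, 5 without day 1 rat 6 and 3 without day 3 rat 4. Between the stages of kindling the 0 became 1 with the block or without laboratory A stage 2 rat 4. Between SE models at day 1 the 0 became 1 with no filter, the block, the first array, or without doubted or set-apart rats, and 2 with quantile normalization. With rat number as a block, 1 of 33 gene results lost its call (Scn7a at day 3 of pilocarpine, adjusted p = 0.0597). Rats of the same number were not treated as pairs: 88 of 240 same-number pairs correlated above 0.1, and 50 of 164 rats correlated best with their own number. The share expected by chance was not worked out, so these values do not settle whether rats of the same number are linked. The cause of the shifts in calls and counts was not tested. Dim probe sets such as Scn7a, Scn9a and Cacna1g lie near background, which limits the size of their changes.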
